A study of Drosophila melanogaster with 66 samples.

Results

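Adult F1 males of Drosophila melanogaster that carry the cell-death construct UAS-rpr without its driver were compared with F1 males of the w1118 control lineage. The rule took every male F1 array labelled rpr/+; ser/+ (3 arrays) and every male F1 control array (3 arrays), which is 6 of the 66 arrays of the series. The rpr/+; ser/+ males have a w1118 mother and a founder father of genotype rpr/cyo; dilp3/ser. From that father they received UAS-rpr on the second chromosome and the Ser-GFP balancer (ser) as the third, so they lack both the ilp3-GAL4 driver (dilp3) and the CyO-YFP balancer (cyo). Their X chromosome is maternal. By the cross they are the fathers of the F2 test generation, whose arrays are labelled w1118. The control males are w1118 flies described as free of constructs, and the same arrays also serve as control for the founders. The control therefore lacks the UAS-rpr chromosome, the balancer and the founder father all together, and these 3 differences cannot be told apart between the compared groups.

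In the binary system used for the founders, GAL4 made in the insulin-producing cells of the brain switches on genes placed behind UAS, and reaper (rpr) releases caspases so that those cells die. A fly with UAS-rpr alone has no GAL4, so the intended ablation needs a partner that these males do not carry. A balancer is a chromosome with several inversions that blocks the recovery of recombinants, and it keeps its own set of linked alleles apart from the background strain. The labels describe flies kept at 25 °C on a 12-h light cycle and RNA from pools of 80 to 90 whole flies, so each array is the average of many animals and all tissues. In such bulk samples fewer cells of a type and less RNA per cell cannot be told apart. Adult age beyond collection in the first days of eclosion is not given in the labels, nor is it stated how the 3 samples of a group were kept separate beyond the words biological replicates.

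Levels are the authors' log2 GCRMA values, on which a difference of 1 is a 2-fold change and 2.2305 is the lowest value on any array. The 6 arrays had medians between 4.08 and 4.16, and their pairwise correlations over probe sets ran from 0.957 to 0.98. Lists of male tissues marked all 6 as male. The testis and sperm list averaged 7.57 to 8.09 over its 45 genes on the rpr/+; ser/+ arrays and 7.72 to 8.39 on the control arrays, against 3.03 to 3.28 in control females. The yolk, eggshell and ovary list averaged 3.28 to 3.42 and 3.28 to 3.49, against 9.17 to 11.51 in control females. Within it the yolk protein gene Yp1 read 6.84 on control array 2 and between 2.90 and 4.33 on the other 5 arrays. Labelled batches 1, 2 and 3 each held 1 array of either group, which gives 1 difference within each batch. What the batch label stands for is not given in the labels.

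UAS-rpr males differed from control males in a small set of genes. Of 11357 genes or unnamed probe sets tested with limma, 55 (0.484%) had an adjusted p under 0.05 after Benjamini-Hochberg correction and are named called genes here. Of these, 31 (0.273% of those tested) were higher and 24 (0.211%) lower in rpr/+; ser/+ males, with median log2 changes of 1.45 and -1.30. Groups did not overlap in 54 of the 55, against 10% of everything tested, and the exception was CG5188. The change had the same sign within all 3 batches for 55 of 55, where 24.2% of all tested entries did. The 55 were picked on these same arrays, which favours both of these counts. A gene symbol was known for 46, of which 26 rose and 20 fell.

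The number of calls depended on the arrays and terms in the fit. The fit took the spread from all 34 male arrays. It gave 14 calls with the founder and F1 arrays only and 0 with the 6 compared arrays alone, either without the batch (693 at an unadjusted p under 0.05) or with it (643). With the replicate number added as a block it gave 151 calls (1.33%), and 892 entries (7.85%) had an unadjusted p under 0.05 in the fit as described. Leaving out 1 array at a time gave between 28 calls (without control array 3 or without rpr/+; ser/+ array 2) and 67 (without rpr/+; ser/+ array 3). In all 6 of those fits 18 genes or probe sets were called, 11 lower and 7 higher in rpr/+; ser/+ males.

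**Figure D1:**
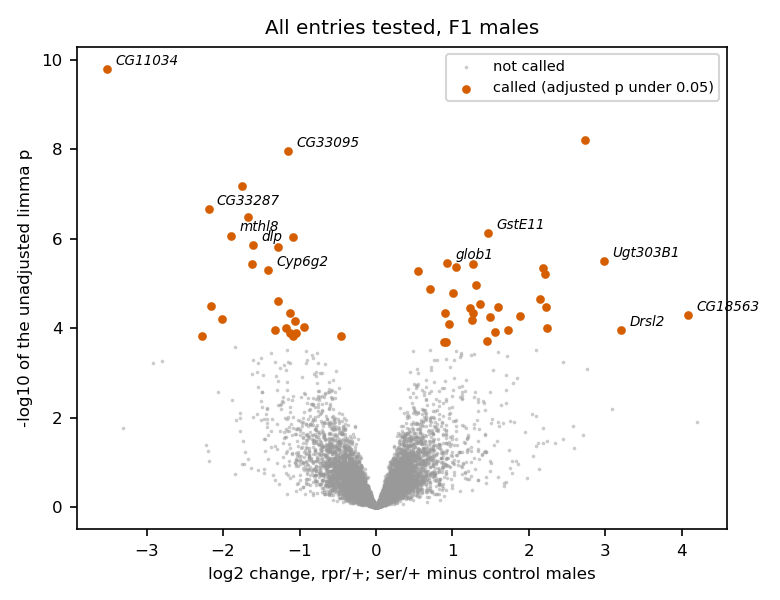
Log2 change between rpr/+; ser/+ and control F1 males (x axis) against -log10 of the unadjusted limma p (y axis) for all 11357 entries tested; orange points are the 55 called. CG11034 lies farthest up on the left, and the largest called rise, CG18563, has a weaker p than smaller changes such as CG33095.

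The firmest difference was a fall of CG11034, a gene of arm 2L for which no role is given here. It read 2.81, 3.73 and 3.02 in the rpr/+; ser/+ males and 6.17, 6.85 and 7.10 in control males, so the highest carrier lay far below the lowest control. The log2 change was -3.52 ± 0.33 (SE, n = 3 per group), an 11.5-fold lower geometric mean, with a limma adjusted p of 1.8e-06. Its differences within batches 1, 2 and 3 were -3.15, -3.37 and -4.05.

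mthl8, a receptor of the methuselah-like family, read 3.88, 3.89 and 3.57 in carriers and 5.70, 6.10 and 5.23 in controls, a change of -1.89 ± 0.29 (limma adjusted p 0.00118), and its second probe set changed by -0.80. dlp, which encodes the glypican Dally-like that binds secreted signals at the cell surface, read 4.74, 4.86 and 4.88 against 6.61, 6.49 and 6.20, a change of -1.61 ± 0.25 (adjusted p 0.0015). Neither gene's groups overlapped, and the SD of the dlp carriers was 0.07. Orp8, of the oxysterol-binding-protein-related family, read 7.89, 7.65 and 7.46 against 8.83, 9.25 and 8.76, a change of -1.28 ± 0.20 (adjusted p 0.0015), while its other probe set changed by -0.00. Alp5, an alkaline phosphatase, fell by 2.01 ± 0.42 on the log2 scale (adjusted p 0.0191), from a control range of 6.54 to 7.75 to a carrier range of 4.81 to 5.43.

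Among enzymes, Daao2, a D-amino acid oxidase, fell by 1.32 ± 0.28 (limma adjusted p 0.0272), from 6.57 to 7.38 in controls to 5.37 to 6.09 in carriers. COX6AL2, a relative of a small subunit of cytochrome c oxidase and a member of the testis list, read 7.08, 7.28 and 7.16 in carriers and 8.08, 7.92 and 8.88 in controls. Its change was -1.12 ± 0.23 (adjusted p 0.0159) with no overlap. NLaz, a secreted lipocalin of the fat body list, read 10.16, 10.06 and 9.83 against 10.85, 11.27 and 10.76. It changed by -0.94 ± 0.20 (adjusted p 0.0257), and again the groups were separate.

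The remaining large falls were genes without a role given here. CG33287 read 4.51, 4.49 and 4.26 in carriers and 6.27, 6.49 and 7.09 in controls, a change of -2.19 ± 0.31 (limma adjusted p 4.9e-04). CG4988 changed by -1.67 ± 0.24, CG8774 by -1.62 ± 0.27, CG4210 by -2.28 ± 0.51 and the noncoding RNA lncRNA:CR32835 by -2.16 ± 0.42, with adjusted p between 6.3e-04 and 0.0334 and no overlap. Of the 12 largest named falls, 8 kept their call in each of the 6 fits that left out an array. The other 4 lost it at least once. The highest adjusted p was 0.176 for CG4210 and 0.183 for Daao2, both without control array 1, and 0.156 for both lncRNA:CR32835 and Alp5 without rpr/+; ser/+ array 2.

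**Figure D2:**
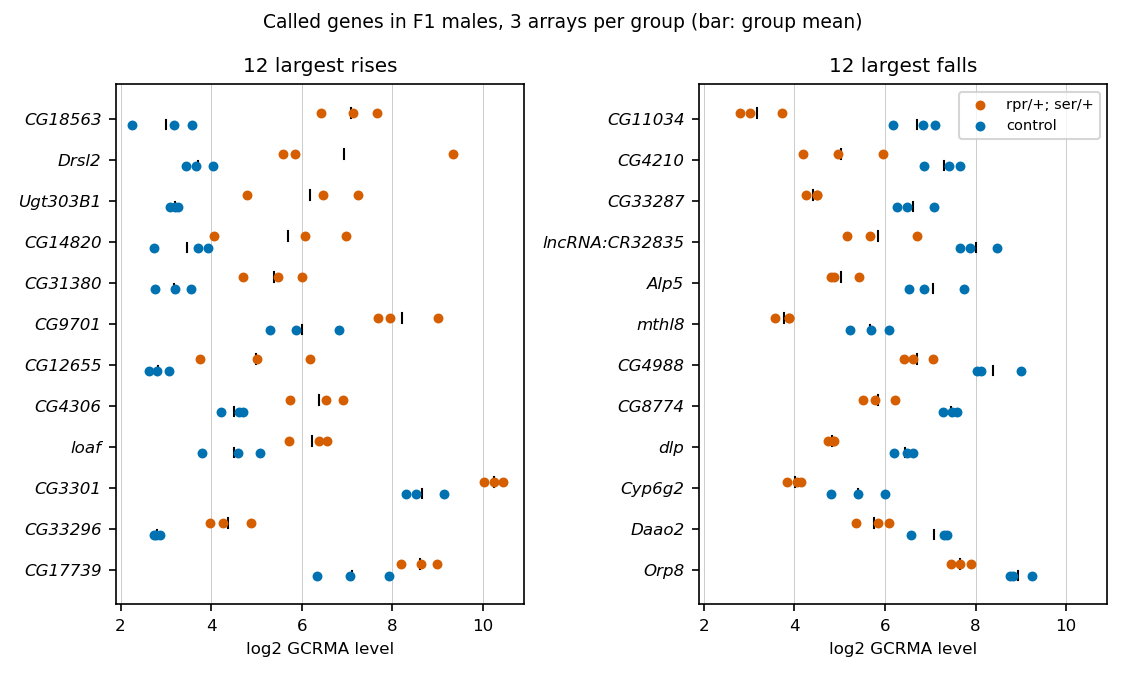
Log2 GCRMA levels on each of the 6 arrays for the 12 largest named rises (left) and falls (right); orange points are rpr/+; ser/+ males, blue points control males, and black bars group means (n = 3). The groups are apart for all 24 genes, and the carriers of Drsl2, CG14820 and CG12655 spread more widely than those of the falls.

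The largest rise among called genes was CG18563. It read 7.66, 7.14 and 6.43 in carriers and 3.57, 3.17 and 2.26 in controls, a change of 4.08 ± 0.83 (limma adjusted p 0.0168). Control array 3 sat near the bottom of the scale. Without that array the change was 3.84 and the adjusted p 0.113, so the size held while the call did not.

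Drsl2, which encodes a small peptide related to the antifungal drosomycin, read 9.33, 5.86 and 5.59 in carriers and 3.45, 3.66 and 4.04 in controls. The change of 3.21 ± 0.69 (limma adjusted p 0.0271) leaned on rpr/+; ser/+ array 1, which stood well above the other 2. Without it the change was 1.98 and the adjusted p 0.178.

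CG14820 read 6.98, 6.06 and 4.06 against 3.93, 3.71 and 2.73, a change of 2.24 ± 0.48 (limma adjusted p 0.0262) with no overlap. Its difference was 0.12 within batch 1, against 3.33 and 3.27 in batches 2 and 3. Without control array 3 the change was 1.78 and the adjusted p 0.218.

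Further rises had a size between those of CG17739 and CG31380. CG31380 averaged 5.39 ± 0.65 (SD, n = 3) in carriers, whose lowest array read 4.70, and read 2.75, 3.21 and 3.56 in controls, a change of 2.22 ± 0.44 (limma adjusted p 0.0133). It was the 1 called member of 43 measured in the ecdysteroid kinase-like family (2.33%, against 0.484% of everything tested). At an unadjusted p under 0.05 the family had 8 of 43, against 7.85%, and its changes ran up to 4.20. That value belongs to CG11893, named after its values were seen, which read 8.54, 7.39 and 7.57 in carriers and 6.28, 2.25 and 2.38 in controls. Control array 1 stood far above the other 2, and the gene was not called (4.20 ± 1.56, limma adjusted p 0.404). CG9701 changed by 2.21 ± 0.38, CG4306 by 1.88 ± 0.38 and loaf by 1.73 ± 0.37, each without overlap. For loaf, F2 and F3 control males averaged 6.36 and 6.02, against 6.22 in carriers and 4.49 in F1 control males. For CG9701 these later controls averaged 8.60 and 7.49, against 8.21 in carriers, and F1 control males read 5.29 to 6.83. For CG4306 they averaged 5.03 and 5.43, below the carrier mean of 6.39. The part of low F1 control levels in these rises was not tested. CG3301 changed by 1.59 ± 0.31, but its other 2 probe sets changed by -0.97 and -0.46. CG17739 changed by 1.49 ± 0.30.

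CG12655 and CG33296 had low levels in control males. CG12655, on the X chromosome, read 5.02, 6.18 and 3.75 in carriers and 2.80, 3.08 and 2.62 in controls, a change of 2.15 ± 0.41 (limma adjusted p 0.0102). CG33296 read 4.87, 4.25 and 3.97 against 2.88, 2.78 and 2.73, a change of 1.56 ± 0.34 (adjusted p 0.0295). The groups did not overlap for either gene. Leaving out rpr/+; ser/+ array 2 brought the CG12655 change to 1.51 with an adjusted p of 0.117, and leaving out array 1 brought that of CG33296 to 1.26 with 0.179.

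Among the 12 largest named rises only Ugt303B1 kept its call in all 6 fits that left out an array. For the others not yet given, the highest adjusted p was 0.0654 for CG9701, 0.0914 for CG4306 and 0.188 for CG17739, all without control array 3. It was 0.174 for loaf and 0.118 for CG3301 without control array 2, and 0.0838 for CG31380 without rpr/+; ser/+ array 1.

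Detoxification enzymes held 4 called genes of 131 measured (3.05%, against 0.484% of everything tested), 3 higher and 1 lower. These enzymes oxidise foreign or endogenous compounds or attach glutathione or sugar to them. Ugt303B1, a UDP-glycosyltransferase, read 7.25, 4.79 and 6.47 in carriers and 3.10, 3.27 and 3.21 in controls, a change of 2.98 ± 0.49 (limma adjusted p 0.00272). GstE11, a glutathione transferase, read 8.44, 8.35 and 7.77 against 6.65, 7.09 and 6.39, a change of 1.47 ± 0.22 (adjusted p 0.00118). For both genes every carrier lay above every control.

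The cytochrome P450 gene Cyp6a20 read 9.95, 10.02 and 9.75 in carriers and 8.64, 8.72 and 8.01 in controls, a change of 1.45 ± 0.33 (limma adjusted p 0.0411) that lost its call in all 6 fits without an array. It falls outside the naming rule and was chosen after its values were seen. Another P450 gene, Cyp6g2, went the other way, with 4.05, 4.14 and 3.83 in carriers and 4.82, 6.01 and 5.41 in controls (-1.41 ± 0.24, adjusted p 0.0031). The list had no common direction: its median change was -0.08, against -0.00 over everything tested, and 57 of 131 were positive. Groups were apart for 26 of the 131, against 10% of everything tested.

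Further called genes with known roles, all but glob1 named after their values were seen, changed by smaller amounts. Higher in carriers were nsl1, a subunit of the chromatin-acting NSL complex (1.27 ± 0.21), and glob1, a globin (0.93 ± 0.16). The same held for Spn47C, a serpin-family gene (1.31 ± 0.24), SCAP, which escorts the lipid regulator SREBP (1.23 ± 0.24), and mTTF, a mitochondrial transcription termination factor (1.01 ± 0.19). sina, a ubiquitin ligase known from photoreceptor fate, was lower (-1.05 ± 0.23). glob1 was the steadiest of these: 12.34, 12.41 and 12.33 in carriers and 11.56, 11.43 and 11.29 in controls, with a limma adjusted p of 0.00272.

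Of the 23 gene lists, 17 had no called gene. Cell death genes, the list closest to the function of reaper, had 0 of 24 called and 1 at an unadjusted p under 0.05, where 0.484% and 7.85% of everything tested were, and a median change of -0.11. These shares are near the background for a list of this size. Insulin and TOR signalling had 0 of 19 called and 0 at an unadjusted p under 0.05, with a median of 0.06. Ilp2, which encodes a peptide hormone made by the cells that ilp3-GAL4 marks in the brain, read 4.04, 3.38 and 3.18 in carriers and 3.44, 2.43 and 2.84 in controls, overlapping groups with a change of 0.63 ± 0.38 (limma adjusted p 0.755). Ilp5, another of these peptides, was between 2.33 and 2.47 on all 6 arrays. The genes Ilp3, rpr, w and Ser were not analysed here.

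Some lists leaned one way with few or no calls. No muscle gene was called (0 of 21, against 0.484% of everything tested). Muscle genes were positive in 20 of 21, with a median of 0.38 and medians of 0.19, 0.76 and 0.17 within batches 1, 2 and 3. Within batch 3 alone, 13 of the 21 were positive. Oxidative phosphorylation genes were positive in 60 of 74, with a median of 0.27 (0.10, 0.41 and 0.26 within batches). Their 1 called gene, COX6AL2 (1.35% of the 74), fell. Male accessory gland and ejaculatory tract genes, with 0 of 39 called, were positive in 8, with a median of -0.13. Their batch medians were -0.27, -0.17 and -0.03. Lipid turnover genes, with 0 of 28 called, were positive in 7, with a median of -0.13 (-0.19, -0.08 and -0.11 within batches). Over everything tested 5579 of 11357 were positive.

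Other leanings were not shared by the batches. Digestive enzymes were positive in 12 of 59 with a median of -0.27, but the batch medians were 0.04, -0.59 and -0.09. Innate immunity genes had Drsl2 as their 1 call of 34 (2.94%, against 0.484% of everything tested). Their median was 0.22, with -0.37 in batch 1 and 0.74 and 0.42 in batches 2 and 3. Eye and phototransduction genes had a median of 0.53, with -0.09 in batch 1. Testis and sperm genes had 1 call, COX6AL2, of 43 (2.33%), and a median of -0.14 that was 0.36 in batch 1 and -0.52 in batch 2.

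Most called genes were autosomal, and few lay on the maternally inherited X. Of genes with a known arm, 10 of 1861 on 2L (0.537%), 9 of 2007 on 2R (0.448%), 12 of 1873 on 3L (0.641%) and 13 of 2436 on 3R (0.534%) were called. On the X it was 2 of 1534 (0.13%), CG12655 and CG3556, and on the small chromosome 4 it was 0 of 61. Groups were separate for 7 of those 61 (11.5%), against 10.1% of all entries with a known arm. The difference in share between arms was not tested.

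Brothers of the other 3 genotypes place these levels. They come from the same kind of cross and carry cyo/+; ser/+, rpr/+; dilp3/+ or cyo/+; dilp3/+, with 3 arrays each. Comparisons of each genotype with the control share the control arrays, so only levels are set side by side here. CG11034, the largest fall, read 3.03, 3.03 and 3.19 in rpr/+; dilp3/+ males, 4.80, 3.14 and 5.46 in cyo/+; ser/+ males and 4.97, 4.68 and 4.39 in cyo/+; dilp3/+ males. The founder males read 2.87, 2.65 and 2.90. All male groups with the UAS-rpr chromosome, the founders with both UAS-rpr and CyO included, read 3.73 or less. F1 males with CyO and no UAS-rpr lay between them and the control, except cyo/+; ser/+ array 2 at 3.14. Sisters with UAS-rpr reached higher levels: 4.14, 4.80 and 4.36 in female rpr/+; dilp3/+ flies and 3.18 to 3.90 in female rpr/+; ser/+ flies. Control females read 5.24 to 7.57.

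For some called genes the means of all 4 F1 genotypes lay on the same side of the control mean. Cyp6g2 had group means of 4.00, 3.93, 4.24 and 4.29 in rpr/+; ser/+, cyo/+; ser/+, rpr/+; dilp3/+ and cyo/+; dilp3/+ males, against 5.41 in control males. GstE11 had 8.19, 8.33, 7.88 and 7.75 in the same order, against 6.71. mthl8 had 3.78, 4.44, 3.88 and 4.17, against 5.68. For Cyp6g2 and GstE11 the cyo/+; ser/+ mean lay farther from the control than the rpr/+; ser/+ mean, and for mthl8 the rpr/+; ser/+ mean lay farthest.

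CG12655 and CG33296 had raised means in the rpr/+; ser/+ males and levels nearer the control in their brothers. The other 3 genotypes had means of 2.67 to 3.29 for CG12655 and 2.78 to 3.00 for CG33296, against 4.98 and 4.36 in rpr/+; ser/+ males. Individual arrays came closer: cyo/+; ser/+ array 2 read 3.80 for CG12655, above the lowest rpr/+; ser/+ array at 3.75. Beyond the brothers, founder males read 4.46, 2.55 and 2.62 for CG12655. For CG33296, F2 test males read 2.88 to 4.39 and F2 control males 2.78 to 4.18, where the lowest rpr/+; ser/+ array read 3.97. The differences from cyo/+; ser/+ males, 1.70 and 1.44, each had a limma adjusted p of 0.462.

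**Figure D3:**
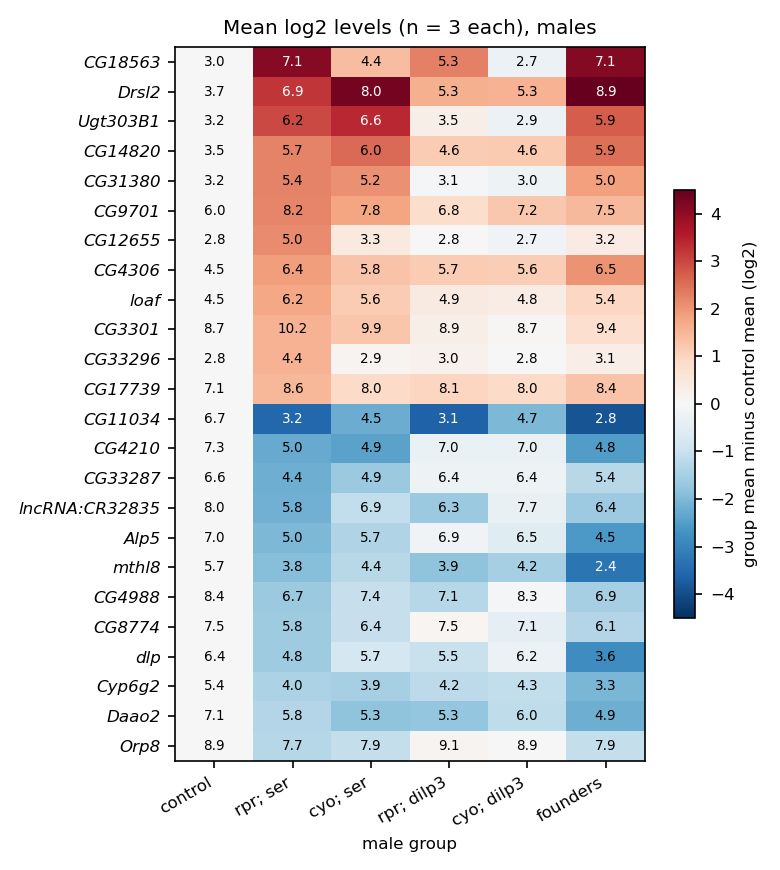
Mean log2 GCRMA levels (numbers in cells, n = 3 arrays each) of the 12 largest named rises and falls in males of the control, the 4 F1 genotypes and the founders; colour gives the group mean minus the control mean on the log2 scale. The shared control column is the reference for every other column, and Orp8, CG33287 and Ugt303B1 have similar means in both ser genotypes and means near the control in both dilp3 genotypes.

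Direct contrasts between brothers were then made. The rpr/+; ser/+ males and the cyo/+; ser/+ males share the Ser balancer and differ in the second chromosome. Between them 0 of 11357 entries were called with limma (0%). The lowest adjusted p was 0.126, and 621 entries (5.47%) had an unadjusted p under 0.05. The replicate block gave 1 call. Leaving out 1 array gave between 0 and 19, the 19 coming without cyo/+; ser/+ array 2. A p that misses the threshold does not show that these genotypes are alike: the 95% interval of the difference in CG11034 ran from -2.11 to -0.71, and that of CG18563 from 0.98 to 4.46.

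The rpr/+; ser/+ and rpr/+; dilp3/+ males share the UAS-rpr chromosome and differ in the third chromosome, the Ser balancer against ilp3-GAL4, and hence also in whether the insulin-producing cells were targeted. Here 20 entries were called (0.176%), 12 higher and 8 lower in rpr/+; ser/+ males. Of the 18 with a known arm, 13 were on 3R (0.534% of 2436 tested), 3 on 3L (0.16% of 1873), 2 on the X (0.13% of 1534) and 0 on the second chromosome (0 of 3868). With the founder and F1 arrays only 0 entries were called, with the replicate block 54, and 693 (6.1%) had an unadjusted p under 0.05 in the fit as described. Leaving out 1 array gave between 11 (without rpr/+; dilp3/+ array 1) and 29. Batches 1 and 3 held an array of either genotype, and 20 of the 20 had the sign of the fit within both. The 20 were picked on these same arrays, which favours that agreement, so it is no separate support.

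Orp8 headed this contrast with 7.89, 7.65 and 7.46 in rpr/+; ser/+ males and 9.04, 9.07 and 9.16 in rpr/+; dilp3/+ males, a difference of -1.45 ± 0.21 (limma adjusted p 0.0023). CG33095 read 7.48, 7.94 and 7.55 against 8.67, 8.79 and 8.69, a difference of -0.97 ± 0.14 (adjusted p 0.0023). glob1 read 12.34, 12.41 and 12.33 against 11.53, 11.07 and 11.36, a difference of 1.01 ± 0.16 (adjusted p 0.00314). The genotypes were fully apart for all 3 genes. The rpr/+; dilp3/+ means of 9.09, 8.71 and 11.32 lay near the control means of 8.95, 8.81 and 11.43.

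The other genes the naming rule gave were CG8774 (-1.79 ± 0.28), CG11286 (2.03 ± 0.36) and CG12947 (0.54 ± 0.10), with limma adjusted p of 0.00314, 0.0112 and 0.0131. CG12947 read 2.94, 2.76 and 2.89 against 2.31, 2.31 and 2.34, low levels in both genotypes. Not every called gene differed from the control in the UAS-rpr males. CG18404, named after its values were seen, read 7.88, 7.80 and 8.45 in rpr/+; ser/+ males and 10.08, 9.51 and 9.92 in rpr/+; dilp3/+ males, while control males averaged 7.79.

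The Ser balancer can be compared with the driver chromosome in arrays that this contrast did not use. After the first result was seen, cyo/+; ser/+ males were compared with cyo/+; dilp3/+ males, which carry no UAS-rpr. Of the 20 genes and probe sets, 19 had the same sign there, against 63.4% of all tested entries taken by the sign of the first contrast, and 12 of the 20 were called, against 37 of 11357 (0.326%). Both contrasts come from 1 fit with a shared spread. Orp8 differed by -1.04, CG33095 by -1.46, glob1 by 0.93 and Ugt303B1 by 3.76, with adjusted p of 0.0208, 2.0e-06, 0.0052 and 4.0e-04. The exception in sign was fs(1)K10, an X-linked gene (1.56 in the first contrast and -0.22 in the second).

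In females the matching contrast, rpr/+; ser/+ minus rpr/+; dilp3/+, gave the same sign for 13 of the 20, against 50.2% of all tested, and called 5, where 1373 of 12809 (10.7%) were called. Orp8 differed by -1.48 (limma adjusted p 0.0308), and nsl1 by 0.79 (0.0207), in the direction seen in males. In this fit with its batch term, glob1 differed by -0.31 (0.405) and CG33095 by -0.06 (0.94). Their female levels read otherwise. CG33095 averaged 8.86 in rpr/+; ser/+ and 10.17 in rpr/+; dilp3/+ females, without overlap. glob1 averaged 11.76 and 11.02 in the same order, the direction seen in males. The female rpr/+; ser/+ arrays lay in batches 3 and 4 and the female rpr/+; dilp3/+ arrays in batches 1 and 2, so batch and genotype cannot be told apart there.

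**Figure D4:**
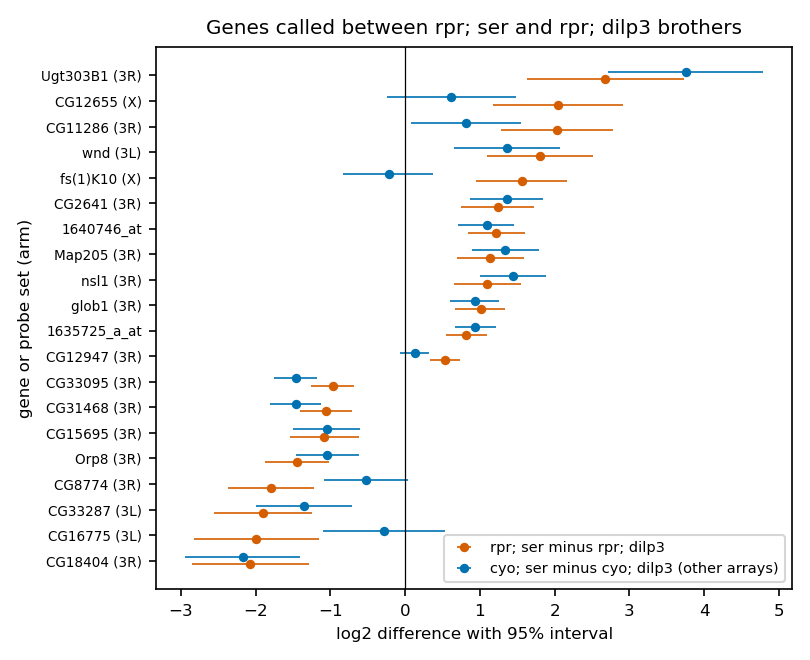
Log2 difference with its 95% interval for the 20 genes and probe sets called between rpr/+; ser/+ and rpr/+; dilp3/+ F1 males (orange) and the same entries between cyo/+; ser/+ and cyo/+; dilp3/+ males (blue, other arrays); chromosome arms are in parentheses. Blue points lie on the same side of 0 as the orange ones for 19 of 20, with fs(1)K10 as the exception.

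Sisters of the UAS-rpr males were compared with control females, and the sexes were then set against each other. Female rpr/+; ser/+ flies differed from control females in 1095 of 12809 entries (8.55%). No batch held arrays of both female groups. The female changes below therefore rest on the batch term of the fit and can differ from plain differences of levels. Of the 55 male calls, 40 had the same sign in females, against 52.4% of all tested, and 12 were called. Among genes lower in males 22 of 24 had the same sign, with a median of -1.12, and among those higher 18 of 31, with a median of 0.28. CG9701, higher in males, changed by -1.57 in the female fit, but its female means were 6.38 in rpr/+; ser/+ and 5.71 in control flies. For CG33095, lower in males, the fit gave -0.07 and the means were 8.86 and 10.13. The part of the batch term in these counts and medians was not tested. CG11034 changed by -3.39 in females (limma adjusted p 0.0044), mthl8 by -1.57 (0.011), Cyp6g2 by -1.62 (0.0424), GstE11 by 0.88 (0.0155) and NLaz by -2.15 (0.0124). The female levels of CG11034, mthl8 and GstE11 were apart between the groups. Those of Cyp6g2 overlapped, with means of 4.03 in rpr/+; ser/+ and 4.33 in control females. NLaz overlapped as well, with means of 9.32 and 9.68.

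A direct test of the difference between the sexes called 8 of 13420 entries (0.0596%), 2 with the male change higher and 6 with it lower, and 660 (4.92%) had an unadjusted p under 0.05. CG33287, CG4988 and lncRNA:CR32835 fell in males. In females they read no more than 3.68 on any rpr/+; ser/+ or control array. Ser12, a serine protease gene, was at 2.23 on all 6 male arrays and on all 3 control female arrays, and read 8.52, 8.37 and 7.49 in female rpr/+; ser/+ flies. CG43074 read 4.67, 5.77 and 3.25 in those females and 9.80, 11.11 and 10.28 in control females, and between 2.45 and 2.92 in the males. Leaving out female rpr/+; ser/+ array 3 raised the 8 calls to 105 and leaving out array 2 raised them to 64, while without male control array 3 or male rpr/+; ser/+ array 1 there were 4.

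The rpr/+; ser/+ males fathered the F2 test flies, of which the balancer-free ones were used further. F2 and F3 test males (4 arrays each) were compared with F2 and F3 control males (4 arrays each), with no array shared with the F1 comparison. The labels give the genotype of all these arrays, test and control, as w1118, and name neither UAS-rpr nor the Ser balancer. No entry was called with limma in either generation (0% and 0%), and 97 (0.854%) and 54 (0.475%) had an unadjusted p under 0.05. Both shares lie far below the threshold of 0.05, the share of entries under it when nothing differs. The test was thus strict here, and a lack of calls does not show that test and control males were alike. Same-numbered test and control arrays lay in the same batch and were not paired in the fit. Of the 55 genes and probe sets called in the fathers, 30 had the same sign in F2 males and 27 in F3 males, against 48.9% and 49.5% of all tested. At an unadjusted p under 0.05 there were 0 of the 55 in F2 and 1 in F3, CG33296 (0.64).

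The sizes were small throughout. The largest change among the 55 was 0.76 in F2, a CG18563 value of -0.76, and 0.64 in F3. For all 55 the F1 change lay outside the 95% interval of the F2 change and outside that of the F3 change. CG11034 changed by -0.04 in F2, with an interval from -0.63 to 0.56, and by 0.42 in F3. The F1 sizes were taken from genes picked for passing the test, which favours large values.

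**Figure D5:**
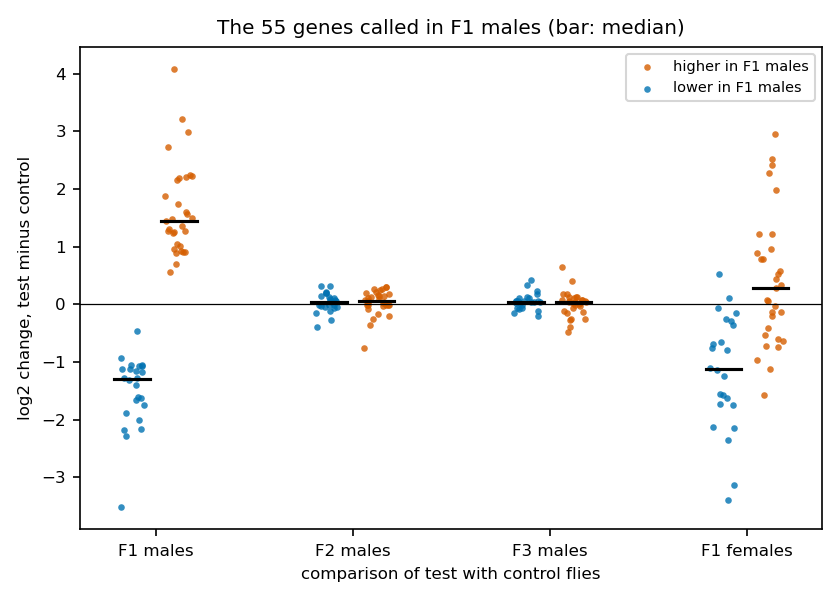
Log2 change of test minus control flies for the 55 genes and probe sets called in F1 males, shown in F1 males, F2 males, F3 males and F1 females; orange points were higher and blue points lower in F1 males, and black bars are medians. In F2 and F3 males all 55 lie within 0.76 of 0 and the medians are between 0.03 and 0.06, while in F1 females the genes lower in males have a median of -1.12. The female values rest on the batch term of the fit, as the female groups share no batch.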

How the data were processed

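The deposited values are log2 expression levels that the authors made from Affymetrix Drosophila 3' IVT arrays. GCRMA (no version) and limma 3.46.0 (no role) are named in the submitters' processing notes, and a genome build is not given in the sources used here. Groups, sexes, replicate numbers and batches were taken from the labels. Control probe sets were left out, and a gene with several probe sets was represented by the one with the highest mean. Entries above the 40th percentile of male values (2.6348) in at least 3 male arrays were tested. Symbols came from the platform annotation and the RefSeq gene table of fly assembly Release 6 plus ISO1 MT.

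Changes were fitted with limma 3.58.1 under R 4.3.3 on the 34 male arrays of 10 groups with batch as a factor, and called where the p adjusted by Benjamini-Hochberg, over every entry tested, was under 0.05. The sex difference came from 1 fit of all 66 arrays. Values are log2 change ± SE from the fit, levels are given per array in the order of replicate numbers 1, 2 and 3, and a fold is a ratio of geometric means. Probe sets within 0.1 of the lowest value were taken as near the floor. Precision is limited by the number of arrays, which carry no counts. Deviations of same-numbered arrays correlated at 0.224, 0.151 and 0.416 in the main comparison and at 0.445, 0.326 and 0.478 in that with cyo/+; ser/+ males, so by the rule used the numbers pair the arrays there. In that with rpr/+; dilp3/+ males they were 0.279, 0.0644 and 0.312. What the replicate numbers stand for is not given in the labels. The changes, SE and calls given as main results come from the fit without these numbers as a block. With the block there were 151 calls against control males and 1 against cyo/+; ser/+ males. Deviations of arrays of the same labelled batch (1, 2 and 3) correlated at -0.14, -0.0396 and 0.216 in the main comparison.

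Named genes are the 12 largest rises and falls among called genes with 1 symbol, up to 3 called genes per list, Ilp2, Ilp3, Ilp5, rpr, w and Ser where measured, and the 3 called genes of smallest p per direction in each other contrast. The compared groups, gene lists and rules were chosen with earlier results of these data known. The scripts were tested on simulated data. Alternatives were another filter, normalization, set of arrays or batch term, and leaving out each array. Figures used Python 3.11.15, pandas 2.3.3 and matplotlib 3.10.9.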

Additional observations from a re-analysis of the deposited data

Results flagged for a closer look

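In 5 named genes the change of rpr/+; ser/+ flies against control differed between the sexes in the test of that difference, given here as the male minus the female log2 change. For Ser12 it was -6.14 (limma adjusted p 7.7e-06), with female rpr/+; ser/+ arrays at 7.49 to 8.52 and all other arrays of the comparison at 2.23. For CG43074 it was 6.32 (3.8e-04), with control females at 9.80 to 11.11 and female rpr/+; ser/+ flies at 3.25 to 5.77. For CG33287 it was -1.99 (0.0374), for CG4988 -1.49 (0.0425) and for lncRNA:CR32835 -2.45 (0.0425), all with a fall in males and female levels of at most 3.68. The female arrays of the compared groups share no batch, and the part of batch in these differences cannot be told apart.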

How the results depend on the processing

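Against control males, the 55 calls were 47 shared of 50 without the batch term, 52 of 67 without the filter, 48 of 55 with the filter at the 60th percentile, 55 of 58 with every probe set, 54 of 64 after quantile normalization and 55 of 74 with batches numbered separately in early and late generations. The count was 151 with the replicate block (55 shared), 34 with both sexes in 1 fit (23 shared), 14 with founder and F1 arrays only (12 shared) and 0 with the compared groups alone, without or with batch. In the last of these fewer arrays estimate the spread. Leaving out an array gave 28 to 67. None of the 55 changed direction in any of the 17 alternatives. The compared groups were balanced over the batches, so fits that altered only the batch term, the block or the other arrays kept the change itself. The 55 also had the same sign within every batch they shared, which favours agreement when an array is left out. This agreement is therefore no separate support. The split moved from 56.4% higher to 42.4% with the replicate block and to 35.7% with founder and F1 arrays only.

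Against cyo/+; ser/+ males the 0 calls became 1 with the replicate block, 4 without the filter and 3 with both sexes in 1 fit, and 0 to 19 without an array. Against rpr/+; dilp3/+ males the 20 became 54 with the replicate block and 0 with founder and F1 arrays only or the compared groups alone, without or with batch, and 11 to 29 without an array. For the sex difference the 8 became 4 with founder and F1 arrays only, 1 and 0 with the compared groups alone without and with batch, 15 without the filter, 5 after quantile normalization, and 4 to 105 without an array. The change of CG43074 in males, -0.12, ran from -0.43 to 0.09 without an array, and was 0.09, 0.08 and 0.02 without control array 3, rpr/+; ser/+ array 3 and rpr/+; ser/+ array 1, at male levels of 2.45 to 2.92. The cause of these shifts was not tested.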
